A study of Oryza sativa with 20 samples.

Results

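Of 21237 genes measured in rice roots, 71 had RNA in the cultivar Azucena and were at or near 0 in 4 other cultivars. A gene was counted as a member when its mean over the Azucena libraries was at least 5 CPM and its mean in each other cultivar was below 0.1 CPM. CPM values are a gene's counts scaled to the total of its library, here also scaled between libraries with the TMM method. They take no account of gene length, so an order of genes by CPM is not an order by amount of transcript. Because these values chose the members, their levels are given as a description and no test of them is used as support. Azucena is an upland tropical japonica rice. It was set against Bala, an upland indica rice, and against Moddai Karuppan, Niyan Wee and Sarali, which were taken to be the Sri Lankan Indica II cultivars of the series title. Each cultivar was represented by 4 root libraries (R1 to R4), so Azucena had 4 libraries and the other cultivars had 16. No treatment, plant age, growth condition or transgene is given in the labels, and nothing there says whether libraries of a cultivar came from separate plants. P-values below therefore measure the spread between these libraries, which may be technical.

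Rice genomes differ in which genes they carry as well as in the sequence of shared genes. Well-known examples are Sub1A, a gene of submergence tolerance, and PSTOL1, a kinase gene of phosphorus uptake, which the reference cultivar Nipponbare lacks. The submitters' processing notes name the build IRGSP-1.0, which is the genome of Nipponbare, a japonica cultivar like Azucena. A gene that a cultivar does not carry, a gene whose reads did not align to that build, and a gene that is present but without RNA in the root cannot be told apart in these counts. None of the 71 members has a gene name of its own in the annotation used, so only their identifiers, gene types and positions relative to other genes are given.

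Total counts per library lay between 23444525 and 31996667. Ribosomal RNA took 4.07% to 84.6% of them, and in Azucena it took 60.4%, 40.8%, 42.4% and 53.4%. Outside ribosomal RNA, Azucena libraries held 10353198 to 15872310 counts, and the shallowest library of all was Bala R4 with 3813600. All 6 listed root markers were among the measured genes, with a summed level of 169 to 832 CPM in Azucena libraries. The silicon transporters NIP2-1 and Lsi2 made up most of it, with Azucena means of 178 and 130 CPM. CASP1, NRAMP5 and the potassium channel AKT1 averaged 38.4, 22.1 and 21.1 CPM, and the iron transporter IRT1 only 1.12 CPM. Of 6 listed leaf markers only 1 was among the measured genes, a small subunit gene of Rubisco, at 0.241 to 1.98 CPM in Azucena libraries. The levels of the remaining leaf markers could not be assessed.

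Azucena means of the members lay between 5.01 and 25.3 CPM, with a median of 8.98 CPM. A mean of at least 10 CPM was reached by 28 members and one of at least 20 CPM by 5. In single Azucena libraries the members had between 14 and 971 counts, and all 71 were detected in each of the 4. Together they summed to 734, 796, 578 and 804 CPM in Azucena R1 to R4. In the other cultivars, 1027 of the 1136 values (90.4%) were exactly 0, 46 were 1 count, 28 were 2 counts, 13 were 3 counts and 22 were higher. All 71 passed the test of Azucena against the mean of the other cultivars as higher. Over all genes tested, 12% were called higher, 8.17% lower and 20.2% in either direction. In all 71 the lowest Azucena library also lay above every other library, and the share of all genes with such a gap was not counted. The rule favoured both outcomes through its limits on cultivar means, and nothing is read from either.

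**Figure D1:**
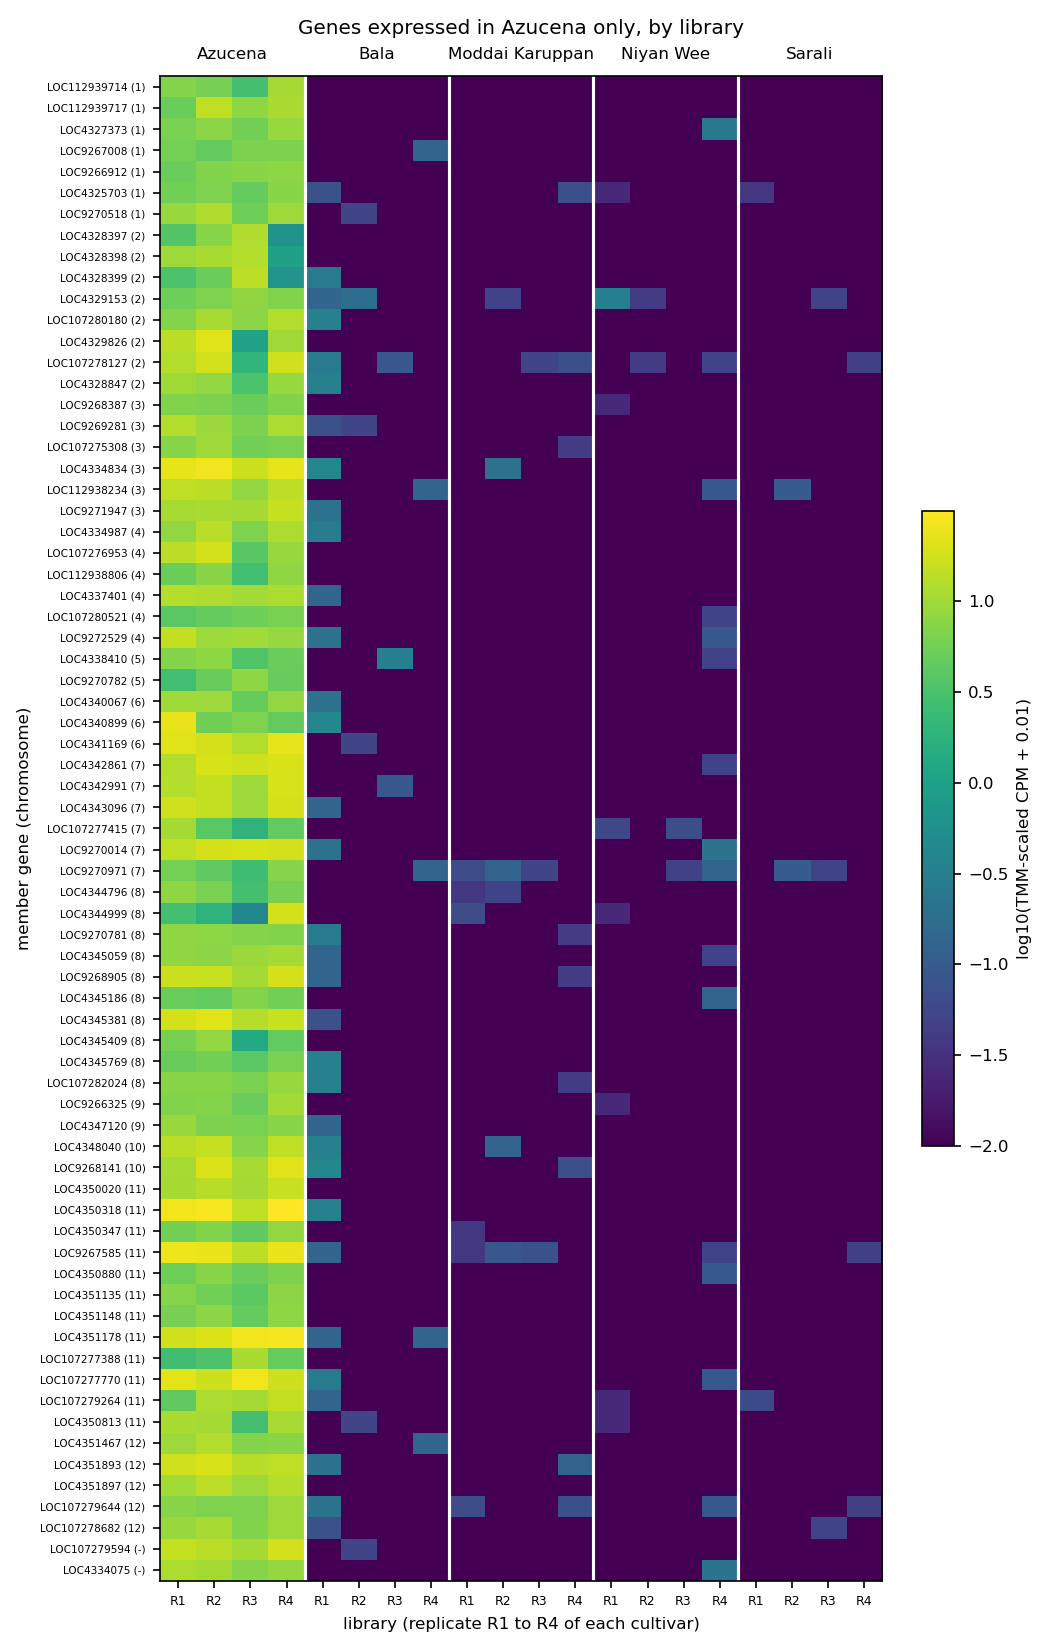
Level of each of the 71 members (one line per gene, chromosome in brackets) in each of the 20 libraries, as log10 of TMM-scaled CPM + 0.01. Azucena libraries are bright throughout, while 1027 of the 1136 other values are 0, and 33 of the 71 members have counts in Bala R1, the library with the most counts outside Azucena.

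For 15 members, all 16 libraries outside Azucena held 0 counts. A count of 0 over those libraries allows up to 3 counts in their sum, or 0.00621 CPM, and against that limit these 15 members were at least 817-fold to at least 2035-fold higher in Azucena. These limits cover counting error only. LOC4350020 (LOC_Os11g09850) stood at 10.8, 13.2, 10.7 and 15.8 CPM in Azucena R1 to R4 and at 0 in all others, and was at least 2035-fold higher. LOC4351897 (LOC_Os12g15222) stood at 10.3, 14.3, 9.63 and 12.6 CPM in Azucena and at 0 in all others, at least 1888-fold higher. Both are protein-coding genes, and no Azucena library of either fell below 9.63 CPM. LOC4329826 (LOC_Os02g37800) stood at 13.8, 21.0, 1.02 and 10.1 CPM and LOC107276953 (LOC_Os04g07600) at 13.5, 18.1, 3.91 and 9.20 CPM in Azucena, also with 0 elsewhere. In both of these, Azucena R3 was the low library. Another 29 members had 15 of the 16 other libraries at 0, 19 members had 14, and 8 members had fewer.

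The counts outside Azucena were spread unevenly over the libraries. Of 262 such counts, 108 (41.2%) were in Bala R1, where 33 of the 71 members had at least 1 count. The members summed to 7.00 CPM in Bala R1, which is 0.961% of their mean sum in Azucena, and to 0.390, 0.476 and 0.641 CPM in Bala R2 to R4. Bala R1 thus stood apart from the other libraries of its cultivar in low counts over many members. Niyan Wee R4 was next, with 38 counts in 16 members and a sum of 1.57 CPM. For 13 members Bala R1 was the only library outside Azucena with any count, and without that library 28 members, not 15, were at 0 everywhere else. Among the 56 members with any count elsewhere, Bala had the highest other mean for 39. Whether these counts come from RNA of the labelled cultivar, from reads of another library or from reads of related genes was not tested.

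**Figure D2:**
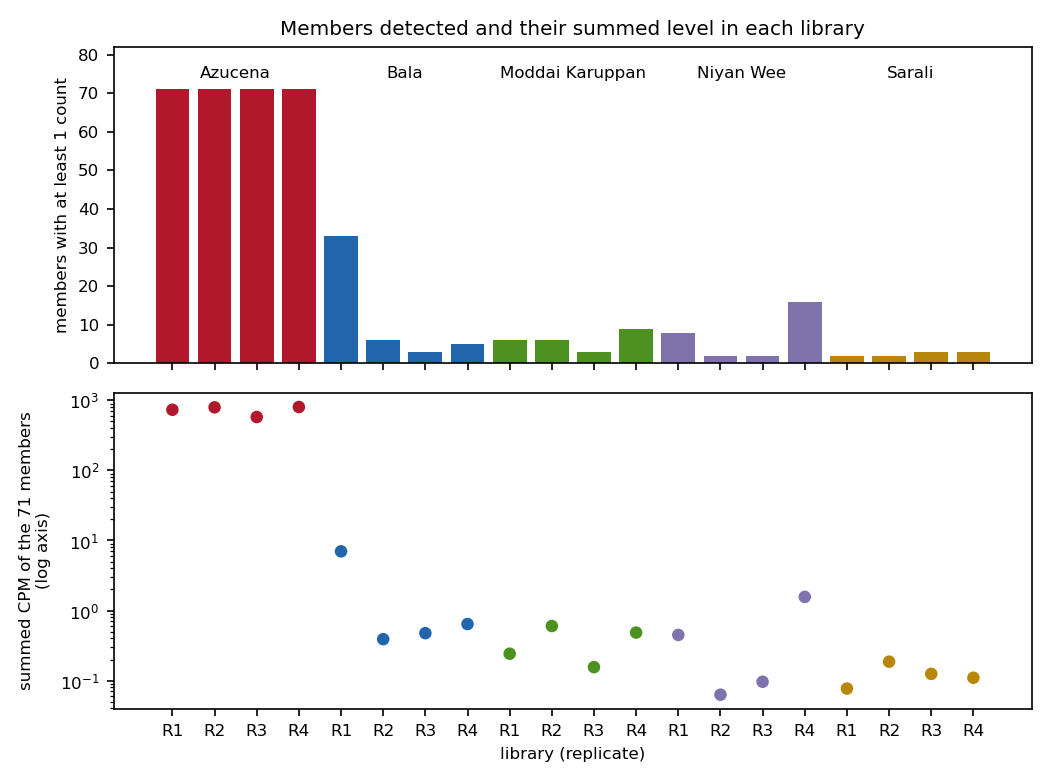
Number of the 71 members with at least 1 count (top) and their summed TMM-scaled CPM on a log axis (bottom) in each library, Azucena at the left. All 71 members were detected in each Azucena library, 33 in Bala R1, 16 in Niyan Wee R4 and at most 9 in any other library.

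A count above 3 in a library outside Azucena was found in 20 members. The highest was 20 counts of LOC4329153 (LOC_Os02g21260) in Niyan Wee R1, or 0.309 CPM, and this gene stood at 5.32, 6.72, 8.37 and 6.78 CPM in Azucena R1 to R4. It also had 4 counts in Bala R2, 2 in Bala R1 and 1 count each in Niyan Wee R2, Moddai Karuppan R2 and Sarali R3. Lower counts recurred over libraries in other members. LOC9270971, annotated as a pseudogene and without a locus identifier, stood at 5.76, 4.44, 2.59 and 7.27 CPM in Azucena and had 1 to 3 counts in 8 of the 16 other libraries, in every other cultivar. LOC107278127 had 1 to 4 counts in 7 other libraries, also in every other cultivar, against 12.3, 18.3, 1.99 and 17.6 CPM in Azucena. All 3 had counts in each of the other cultivars, and all of their Azucena libraries lay above every other library.

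The limits cut through a continuous range of values. Just inside the lower limit in Azucena were LOC9270971 at 5.01 CPM, LOC107280521 at 5.07 CPM and LOC9270782 at 5.07 CPM, and just outside it were LOC107278031 at 4.98 CPM, LOC4324108 at 4.98 CPM and LOC9271378 at 4.88 CPM. Just inside the upper limit elsewhere were LOC4334834, LOC4340899 and LOC9268141, each with a Bala mean of 0.0972 CPM that came from 6 counts in Bala R1. Just outside it were LOC9270817 with 0.102 CPM in Niyan Wee, LOC4351890 with 0.103 CPM in Bala and LOC4326029 with 0.108 CPM in Bala. LOC4326029 stood at 19.6, 21.5, 15.8 and 21.8 CPM in Azucena, so a gene with every Azucena library at 15.8 CPM or more was left out. Below 0.1 CPM in each other cultivar, at any Azucena level, there were 210 genes, of which 139 had an Azucena mean under 5 CPM.

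The same limits applied to each other cultivar gave far fewer genes. They gave 71 in Azucena, 4 in Sarali, 0 in Niyan Wee, 1 in Moddai Karuppan and 3 in Bala. Sarali held LOC4342832 (LOC_Os07g14514) at 15.3, 15.2, 14.6 and 17.7 CPM and LOC107275807 (LOC_Os10g01380) at 12.8, 11.1, 10.7 and 14.5 CPM. Without a lower limit, a mean below 0.1 CPM in each of the other cultivars was seen for 210 genes in Azucena, 5 in Sarali, 4 in Niyan Wee, 6 in Moddai Karuppan and 4 in Bala. The opposite pattern was not found for Azucena. Genes below 0.1 CPM in 1 cultivar and at least 5 CPM in each other cultivar numbered 0 for Azucena, 3 for Sarali, 5 for Niyan Wee, 0 for Moddai Karuppan and 10 for Bala. The difference between cultivars in these counts was not tested, since each count rests on 1 group of 4 libraries. The build IRGSP-1.0 is of a japonica cultivar like Azucena, and genes it lacks could not be counted for any cultivar. A gene with RNA in several of the other cultivars is also not counted as expressed only in any of them. The counts are therefore not like for like between cultivars.

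The 71 members made up 0.537% of the 13232 genes with an Azucena mean of at least 5 CPM. A gene type was found for 68 of them. Of these, 41 (60.3%) are protein-coding, 23 (33.8%) are long non-coding RNA genes, 3 (4.41%) are pseudogenes and 1 (1.47%) is a miscellaneous RNA. Long non-coding RNAs are long transcripts without a predicted protein. Among the 8623 typed other genes in the same range of Azucena levels, 95.7% are protein-coding and 2.97% are long non-coding RNA genes. Protein-coding members had a median Azucena mean of 10.2 CPM, from 5.11 to 23.3 CPM, and 22 of 41 reached 10 CPM. Long non-coding RNA members had a median of 6.82 CPM, from 5.07 to 25.3 CPM, and 5 of 23 reached 10 CPM.

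Members lay on all 12 chromosomes, unevenly. Of the 69 members with a known chromosome, 12 (17.4%) were on chromosome 11, which holds 4.69% of all genes at that Azucena level. Chromosome 8 held 10 (14.5%) against 6.49% of all genes at that level. Chromosome 2 held 8 (11.6%, against 12.2% of those genes) and chromosome 1 held 7 (10.1%, against 14.3%). Chromosomes 3, 4 and 7 held 6 each, chromosome 12 held 5 and chromosome 6 held 3. Chromosomes 5, 9 and 10 held 2 each.

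**Figure D3:**
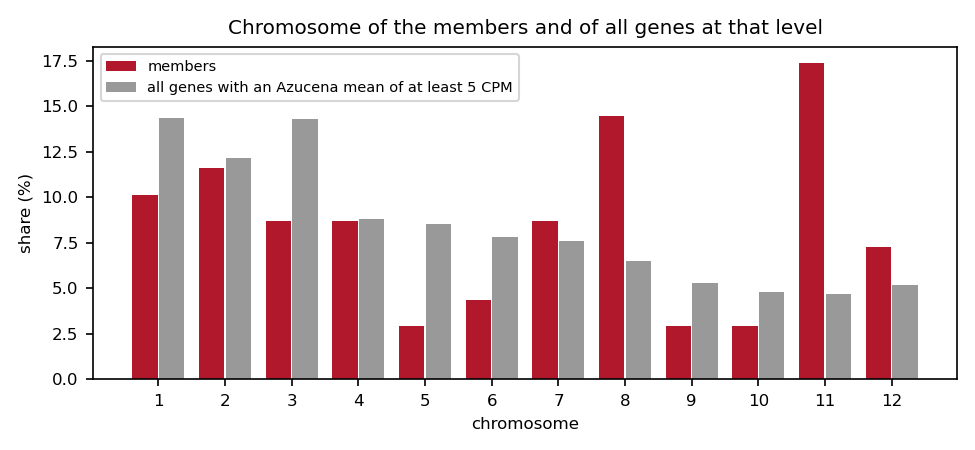
Share of the 69 members with a known chromosome (red) and of all genes with an Azucena mean of at least 5 CPM (grey) on each of the 12 rice chromosomes. Chromosome 11 held 17.4% of the members and 4.69% of all genes at that level, chromosome 8 held 14.5% and 6.49%.

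A locus identifier of the MSU7 annotation, whose numbers run along each chromosome, was given for 51 members and not for 20. Runs were defined as members on one chromosome whose locus numbers were at most 50 apart. There were 2 such runs with 5 members in all, so most members had no other member beside them.

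The run on chromosome 2 held LOC4328397 (LOC_Os02g06754), LOC4328398 (LOC_Os02g06760) and LOC4328399 (LOC_Os02g06770), which are protein-coding. In Azucena R1 to R4 LOC4328397 stood at 3.61, 7.41, 12.1 and 0.623 CPM, with 0 in all other libraries. LOC4328398 stood at 9.59, 11.3, 12.5 and 1.00 CPM in Azucena, with 0 in all other libraries. LOC4328399 stood at 3.21, 5.19, 14.3 and 0.657 CPM in Azucena, with 4 counts in Bala R1 and 0 in the other libraries. All 3 were highest in Azucena R3 and lowest in Azucena R4, so the order of the extreme libraries was shared along the run. The next measured gene, LOC4328400 (LOC_Os02g06790), did not share it, at 5.06, 4.14, 3.49 and 5.71 CPM in Azucena and 2 counts or fewer in any other library. With a mean of 4.60 CPM it missed the lower limit, and it was named after its values had been seen. Among genes with a locus identifier, those on both sides of these 4 had RNA in every cultivar. LOC4328392 averaged 213 ± 37.0 CPM in Azucena, against 147 ± 26.2 in Sarali, 168 ± 64.5 in Niyan Wee, 146 ± 22.0 in Moddai Karuppan and 194 ± 31.6 in Bala, and LOC9271951 averaged 6.90 ± 1.12 CPM in Azucena, against 5.96 to 8.35 CPM as means of the others (SD, n = 4 each). Neither passed the test, with adjusted p-values of 0.125 and 1.00. In the RefSeq order LOC4328394, which has no locus identifier, lies directly before the run, and it averaged 51.5 ± 5.00 CPM in Azucena (SD, n = 4), against 52.1 to 65.4 CPM as means of the others.

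The run on chromosome 1 held 2 long non-coding RNA genes, LOC112939714 (LOC_Os01g43980) and LOC112939717 (LOC_Os01g44020). LOC112939714 stood at 6.95, 5.94, 2.89 and 10.6 CPM in Azucena R1 to R4 and LOC112939717 at 4.93, 14.5, 8.07 and 11.4 CPM, and both were at 0 in all 16 other libraries. Their lowest Azucena libraries differed, R3 in one and R1 in the other. At a distance of up to 100 locus numbers a further pair on chromosome 9 was counted, LOC9266325 (LOC_Os09g25880) and LOC4347120 (LOC_Os09g25934). LOC9266325 stood at 6.82, 7.02, 4.97 and 10.2 CPM in Azucena with 1 count elsewhere, and LOC4347120 at 9.10, 6.45, 6.23 and 7.58 CPM with 2 counts elsewhere. Between them lies the protein-coding LOC4347118, which was expressed in every cultivar, at 39.9 ± 15.7 CPM in Azucena, against 44.9 ± 4.15 in Sarali, 37.3 ± 10.6 in Niyan Wee, 49.7 ± 6.78 in Moddai Karuppan and 46.3 ± 10.5 in Bala (SD, n = 4 each). It did not pass the test, with a log2 fold change of −0.15 ± 0.20 (SE) and an adjusted p of 0.648, and this value changed sign without Azucena R3. The members on both sides of it therefore do not form an unbroken stretch of genes without RNA elsewhere.

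Locus numbers miss the 20 members without an identifier, so the order of genes in the RefSeq table was also used. Stretches were defined as consecutive measured genes, each below 0.1 CPM in every other cultivar, with at least 1 member among them. There were 11 such stretches with 31 genes, of which 19 are members and 12 have Azucena means under 5 CPM. The longest, on chromosome 11, held 6 genes, 3 of them members. Its member LOC4351178 (LOC_Os11g47370), which is protein-coding, stood at 17.8, 20.4, 27.2 and 27.9 CPM in Azucena R1 to R4 and had 3 counts elsewhere, all in Bala. LOC107279264, a long non-coding RNA gene, stood at 4.40, 11.6, 10.6 and 14.9 CPM with 5 counts elsewhere, and LOC107277388, also long non-coding, stood at 2.64, 3.27, 11.4 and 4.84 CPM with 0 elsewhere. Azucena R1 was the lowest library in all 3 members, and the highest was R4 in the first 2 and R3 in the third. The non-members of the stretch averaged 2.02 CPM (LOC4351179), 2.10 CPM (LOC9271727) and 3.76 CPM (LOC112936844) in Azucena.

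**Figure D4:**
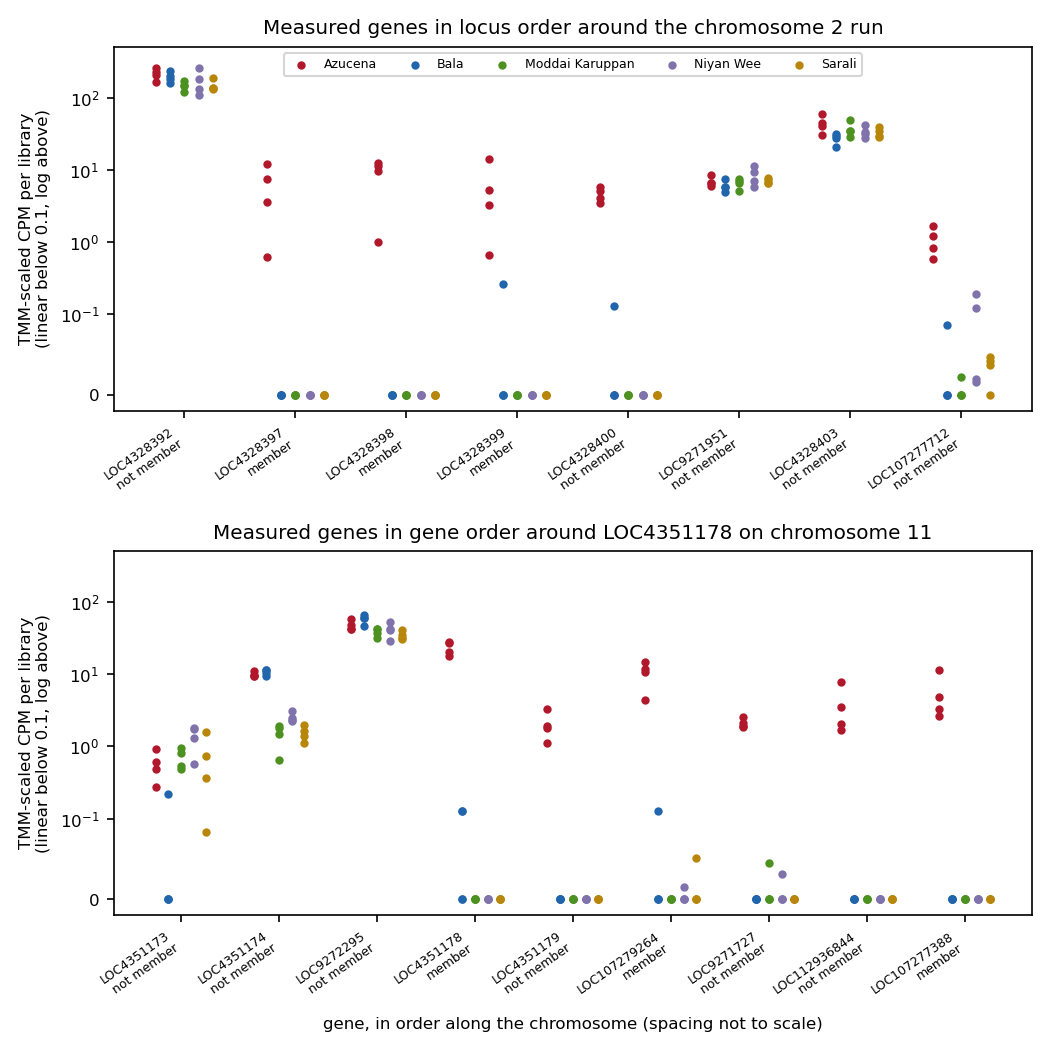
TMM-scaled CPM of single libraries (points; Azucena red, at the left of each gene) for measured genes in order along the chromosome, around the run on chromosome 2 (top) and the stretch on chromosome 11 (bottom), on an axis that is linear below 0.1 and logarithmic above. The members and the low genes among them have points above 0.1 almost only in Azucena, whereas LOC4328392 and LOC9271951 have all 5 cultivars at like heights.

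Another stretch on chromosome 11 held 3 members side by side. LOC9267585 (LOC_Os11g37759) stood at 25.9, 25.1, 14.3 and 24.8 CPM in Azucena R1 to R4, LOC107277770 at 22.9, 17.1, 26.1 and 17.1 CPM, and the pseudogene LOC4350813 at 11.3, 10.5, 2.89 and 10.9 CPM. Azucena R3 was the lowest library in the first and the last and the highest in the middle one, so the 3 did not vary together. LOC9267585 also had 10 counts outside Azucena, in all 4 other cultivars. The gene after them, LOC4350814, was named after its values had been seen. It averaged 56.7 ± 6.12 CPM in Azucena, against 5.86 ± 2.36 in Sarali, 1.34 ± 1.23 in Niyan Wee, 1.59 ± 1.87 in Moddai Karuppan and 8.93 ± 4.89 in Bala (SD, n = 4 each), and was higher with a log2 fold change of 4.09 ± 0.44 (SE, adjusted p = 7.02e-07). On chromosome 12, LOC4351893 and LOC4351897 followed each other among measured genes, and LOC4351467 stood beside 2 genes, LOC4351466 and LOC9270379, with Azucena means of 2.09 and 1.94 CPM.

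The 10 members with the highest Azucena means included 2 long non-coding RNA genes. The first of these, LOC4350318 (LOC_Os11g19149), stood at 26.1, 29.1, 14.7 and 31.4 CPM in Azucena and had 5 counts in Bala R1 and 0 in the other 15 libraries. The second, LOC9270014, stood at 14.6, 18.9, 19.4 and 18.8 CPM in Azucena, with 3 counts in Bala R1 and 5 in Niyan Wee R4. The protein-coding LOC4334834 (LOC_Os03g63870) stood at 23.5, 26.8, 16.8 and 23.6 CPM in Azucena, with 6 counts in Bala R1 and 5 in Moddai Karuppan R2. Each of these 3 had counts in Bala R1, and their Azucena libraries lay far above those of every other cultivar. LOC4341169 stood at 20.9, 18.7, 12.6 and 23.4 CPM in Azucena with 1 count elsewhere, in Bala R2. LOC4345381 (LOC_Os08g27540) stood at 18.9, 20.9, 13.0 and 16.1 CPM with 1 count elsewhere, in Bala R1. LOC4342861 (LOC_Os07g15440) stood at 12.4, 19.0, 17.6 and 19.1 CPM with 1 count elsewhere, in Niyan Wee R4. These 3 had the fewest counts elsewhere among the 10. LOC4351893 (LOC_Os12g14840) stood at 17.3, 19.3, 13.3 and 14.7 CPM in Azucena, with 3 counts in Bala R1 and 4 in Moddai Karuppan R4, and the remaining members of the 10, LOC4351178, LOC9267585 and LOC107277770, are described above.

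Members varied among the Azucena libraries. Their coefficient of variation, the SD over 4 libraries as a share of the mean, had a median of 25.4% and a range of 9.35% to 144%, where the median over 8701 other genes in the same range of Azucena levels was 18.8%. It was below 20% in 22 members and above 50% in 11. All 4 Azucena libraries reached 5 CPM in 39 members, whereas 32 members had at least 1 library below 5 CPM and 3 had 1 below 1 CPM. The steadiest was LOC9270781 (LOC_Os08g13710) at 8.22, 7.92, 7.04 and 6.75 CPM, followed by LOC4337401 (LOC_Os04g58050) at 13.0, 12.1, 10.1 and 11.6 CPM. The most variable was LOC4344999 (LOC_Os08g13440) at 2.86, 1.83, 0.421 and 18.8 CPM, whose mean passed the lower limit through Azucena R4 alone. LOC4340899 (LOC_Os06g21820) stood at 24.1, 5.46, 6.59 and 4.46 CPM, so that its mean rested largely on Azucena R1. These extremes were named after their values had been seen.

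Azucena R3 was the lowest Azucena library for 48 members (67.6%), against 33.5% of the other genes in the same range. Azucena R4 was the highest for 30 members (42.3%), against 19.0% of the other genes. The summed level of the members was also lowest in R3, at 578 CPM. Members were thus low in R3 more often than the other genes, and this share was not tested.

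Partial counts were more frequent among members than elsewhere. Of the Azucena values of members, 24.6% were not whole numbers as deposited, within 1e-06, against 6.90% for other genes in the same range. At least 1 such value was found in 31 members, 40 had none, and in 7 members all 4 Azucena values were partial. How the counting gave partial values is not given in the sources used here, and where reads were divided between similar genes the levels of these members are uncertain. In the RefSeq table, 8 members overlap another gene, 3 of them long non-coding, and since the strand setting of the counting is not given in the sources used here, their reads and those of the overlapping gene cannot be told apart.

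Whether genes next to the members also differed was tested on genes that the rule had not chosen. For 47 members, 139 measured non-member genes lay among the nearest 2 on either side within 100 locus numbers. Of these 139, 39 (28.1%) were higher in Azucena than the log2-scale mean of the other cultivars, 12 (8.63%) were lower and 88 did not pass. Over all 21225 genes tested, 12% were higher and 8.17% were lower. The median log2 fold change of the 139 was 0.18, against 0.02 over all genes tested. Since neighbouring genes can share a stretch of genome, they are not independent, and the excess over the background was not tested. Of the 39 higher genes, 7 were below 0.1 CPM in each other cultivar and 32 reached at least 0.1 CPM in some other cultivar. Of these 32, 17 reached at least 1 CPM in every other cultivar, and the rest were lower in at least 1 of them. In 17 of the 39 the lowest Azucena library lay above every other library. The call as higher favours such a gap, and its share over all genes tested was not counted, so nothing is read from it. Because the test averages the other cultivars on the log2 scale, a gene can pass as higher while another cultivar exceeds Azucena. LOC4348039, named after its values had been seen, passed as higher at 1.74 CPM in Azucena, against 7.46 CPM in Moddai Karuppan and 0 in Niyan Wee. At least 1 higher neighbour was found beside 29 members and at least 1 lower one beside 11. Most members have several neighbours, some of them shared, and the like share beside other genes was not counted, so nothing is read from either number. With the nearest gene only, 26 of 78 were higher and 6 lower, and with the nearest 3 genes on each side 42 of 182 were higher and 20 lower.

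**Figure D5:**
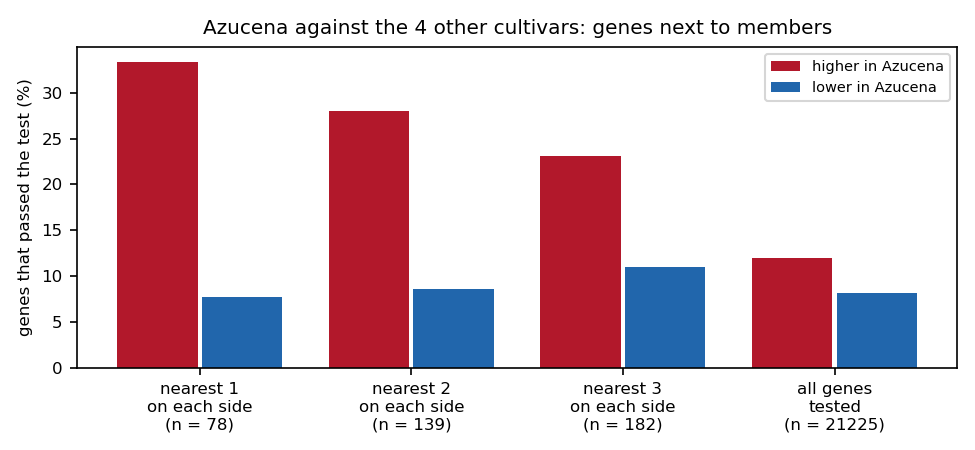
Share of genes that passed the test as higher (red) or lower (blue) in Azucena than the log2-scale mean of the 4 other cultivars. Shown are measured non-members nearest to the members and all 21225 genes tested. Higher genes made up 28.1% of the 139 neighbours at 2 genes on each side and 12% of all genes, lower genes 8.63% and 8.17%.

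The neighbours with the smallest p-values were all higher in Azucena and protein-coding. Beside LOC9266912 (LOC_Os01g73644), LOC4324008 (LOC_Os01g73656) stood at 16.6, 14.3, 15.6 and 13.9 CPM in Azucena R1 to R4, against 0 to 0.519 CPM with a median of 0 in the 16 other libraries (adjusted p = 2.72e-09), and missed the rule through Bala R1. The next gene, LOC4324010 (LOC_Os01g73670), stood at 40.0, 37.8, 30.6 and 36.3 CPM in Azucena, against 1.10 to 14.0 CPM with a median of 2.26 CPM in the others, a log2 fold change of 3.68 ± 0.23 (SE, adjusted p = 5.37e-10). The 2 genes show one neighbour at or near 0 elsewhere and one with RNA in all cultivars, and in both the Azucena libraries lay above every other library. LOC9272184 (LOC_Os12g15314), beside LOC4351897, stood at 27.8, 28.4, 19.1 and 23.5 CPM in Azucena, against 0.584 CPM in Bala R1, 0.0733 CPM in Sarali R4 and 0 in the other 14 (adjusted p = 5.00e-09).

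The remaining 2 of these 5 neighbours were at or near 0 in some of the other cultivars and not in others. LOC4350023 (LOC_Os11g09940), beside LOC4350020, averaged 15.5 ± 1.35 CPM in Azucena, against 0.686 ± 0.440 in Bala, 4.25 ± 1.29 in Niyan Wee and 3.78 ± 0.743 in Sarali (SD, n = 4 each), with 0 in all 4 Moddai Karuppan libraries (adjusted p = 6.79e-10). LOC9270434 (LOC_Os11g45790), beside LOC4351135 (LOC_Os11g45809), averaged 7.83 ± 0.463 CPM in Azucena, against 2.44 ± 1.26 in Moddai Karuppan and 2.09 ± 0.597 in Sarali (SD, n = 4 each), with 0.0309 CPM in Niyan Wee R1 and 0 in the other Niyan Wee and all Bala libraries (adjusted p = 1.87e-09). In these 2 genes the Azucena libraries again lay above every other library. Among the lower neighbours, named after their values had been seen, was the long non-coding LOC4345011 (LOC_Os08g13699) beside LOC9270781. It stood at 0, 0, 0.813 and 0.104 CPM in Azucena, against 2.05 to 10.6 CPM with a median of 5.73 CPM in the 16 others, a log2 fold change of −4.59 ± 0.63 (SE, adjusted p = 1.87e-05). LOC107281879 (LOC_Os08g07950), beside LOC4344796 (LOC_Os08g07890), stood at 3.39, 6.09, 4.73 and 4.33 CPM in Azucena, against 9.46 to 43.0 CPM with a median of 25.1 CPM in the others, a log2 fold change of −2.30 ± 0.33 (SE, adjusted p = 2.60e-05). Genes next to members were thus found on both sides of the comparison. The share of lower ones, 8.63%, was near the 8.17% over all genes tested.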

How the data were processed

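RNA of 20 rice root libraries was sequenced, 4 from each of 5 cultivars. Per the labels' protocols, libraries were made with a stranded total RNA kit that removes ribosomal RNA, while another label names polyadenylated RNA. The submitters' processing notes name HISAT2, edgeR 3.36.0 and build IRGSP-1.0, without the counting tool or its strand setting. The deposited values are counts of which 7.58% are not whole, for a reason the header does not give, and the test treated them like expected counts. The design assumed raw counts, and values were therefore rounded. Of the rows, 2 named no gene and were left out, leaving 21237 genes, and 1 locus is not reported here. Names, gene types and gene order came from the RefSeq table of assembly ASM3414082v1, which matched 20839 genes. It is another build, so no coordinates are given.

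CPM values were TMM-scaled and means taken over 4 libraries per cultivar. Genes were tested with edgeR 4.0.16 in R 4.3.3 (glmQLFit, glmQLFTest, filterByExpr at a minimum count of 10, 21225 genes kept) in one model of all libraries, as Azucena minus the mean of the other 4 cultivars on the log2 scale. The Benjamini-Hochberg adjustment covered all genes tested, and a gene passed at an adjusted p below 0.05. The same steps were tested on simulated data. Total counts were 23444525 to 31996667 per library, and 3 counts in 1 library were worth 0.0464 to 0.385 CPM. Alternatives comprised DESeq2 1.42.0, RLE scaling, other limits, left-out libraries, and the 2 pools (P1 and P2) named in the file header.

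The members and the marker lists were chosen with earlier results of these data known. Named are the members in runs, the 10 with the highest Azucena mean, the 3 genes on each side of each limit, measured genes inside a run and the 5 neighbours with the smallest p. Others are said to be named after their values were seen, or are given with members at 0 in all other libraries, members with counts elsewhere, the stretches, or as genes that the same limits gave in another cultivar. A comparison of members with their closest protein relatives was planned and not run, because no protein table was used here.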

Additional observations from a re-analysis of the deposited data

Results flagged for a closer look

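A library stood far from the other 3 of its cultivar, by a gap test on groups of 4 libraries, in 8 of 88 groups examined. The cutoff is one that about 1 in 20 independent groups would pass by chance. Of the 88, 78 are single genes in the same 4 Azucena libraries, most of them members chosen on these values. These groups are not independent, so no excess over chance is read from the count. In Azucena R3, 3 members were low. LOC9267585 stood at 14.3 CPM, against 24.8 to 25.9 in the other Azucena libraries, LOC4350813 at 2.89 CPM, against 10.5 to 11.3, and LOC112938234 at 8.43 CPM, against 13.8 to 14.3. In Azucena R4, LOC4344999 was high at 18.8 CPM, against 0.421 to 2.86, and LOC9271947 at 15.4 CPM, against 10.6 to 11.2. In Azucena R1, LOC4340899 was high at 24.1 CPM, against 4.46 to 6.59, and LOC9270014 low at 14.6 CPM, against 18.8 to 19.4. The summed level of the 71 members was 7.00 CPM in Bala R1, against 0.390 to 0.641 in the other Bala libraries.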

How the results depend on the processing

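The number of genes expressed in Azucena only was 71. It became 160 with a lower limit of 2 CPM, 28 with 10 CPM and 13 where every single library had to meet both limits. Leaving out each library gave 64 to 82, the highest without Bala R1. With ribosomal RNA left out it was 100, of which 45 are among the 71, since each count is then worth more CPM. By the same limits Bala alone had 1 to 11 genes with a library left out (1 without Bala R3, 11 without Azucena R3), 7 in pool P1 and 1 in P2, against 3. Moddai Karuppan had 1 to 2 with a library left out and 2 without ribosomal RNA, in P1 and in P2, against 1. Niyan Wee had 0 to 2 (2 without Azucena R3, 1 without Niyan Wee R3), 1 without ribosomal RNA and 3 in P1, against 0. Sarali had 2 to 4 (2 without Sarali R1) and 2 in P2, against 4. In each pool alone the members numbered 59 (P1, 46 shared with the 71) and 80 (P2, 64 shared).

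Runs of locus numbers held 3 members at a distance of up to 30 and 12 by RefSeq order, against 5. Genes higher in Azucena numbered 2542, 2009 to 2733 with a library left out, 1624 in P1 and 1384 in P2, and lower genes 1735, 1204 to 1803, 752 and 547. Among neighbours, 39 were higher and 12 lower. Leaving out libraries gave 33 to 41 higher and 6 to 13 lower (6 without Azucena R4), P1 alone 5 lower, P2 alone 2 lower, the nearest gene 6 lower, the nearest 3 genes 20 lower, and RefSeq order 69 higher and 23 lower of 232. The log2 fold change of LOC4347118, −0.15, was −0.36 to 0.052 with a library left out (0.052 without Azucena R3) and 0.053 in P1 alone. The cause of these shifts was not tested, beyond fewer libraries or other genes counted. The 5 named neighbours and LOC4328400 kept their direction and call in all 29 alternatives.

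By the correlation of their deviations from cultivar means, the replicate number, which the labels call a batch rep, was not taken to pair libraries. Of 40 same-numbered pairs 17 were above 0.1, with a mean of 0.0407, against −0.014 for other numbers. R1 differed from the other numbers, with all 10 pairs positive and 8 above 0.1, where R2, R3 and R4 had 3 of 10 each above 0.1. With the replicate block, 2477 genes were higher and 1734 lower, and 38 and 12 of the neighbours. Depth limits the counts of 0 most in Bala R4, where 3 counts are worth 0.385 CPM.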
